A study of Caenorhabditis elegans with 2 samples.

Results

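The genes described here are 34 *Caenorhabditis elegans* genes whose products regulate RNA in the germline and the early embryo, out of 19985 annotated protein-coding genes. They were given as a list of names, and each was examined for recovery of the tagged protein MADF-2 in its promoter window, which starts 1000 bp before its annotated 5′ end and stops 200 bp past it. By role, 8 are P granule genes, 20 encode maternal RNA-binding proteins and translation regulators, 3 act in small RNA pathways and 3 act on meiotic chromosomes. The data are chromatin immunoprecipitation and sequencing (ChIP-seq) of whole late embryos, both sexes together, taken 3 hours after synchronisation by bleaching. The strain, OP587, has the genotype unc-119(tm4063) III with the insertion wgIs587, from which MADF-2 is made as a fusion with GFP and FLAG at its C-terminus, and GFP was the target of the antibody. Both biological replicates carry these alleles and form the only group, so the design holds no control genotype. Which promoter drives the fusion is not stated in the labels, and no marker in ChIP-seq regions can check the labelled stage.

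Germ cells of the worm descend from the P lineage, whose cells inherit P granules, which are condensates of RNA and protein that lie at the nuclear envelope. Early embryos rely on maternal mRNAs, and CCCH zinc finger, KH, PUF and Nanos proteins control where and when these are translated. Argonaute proteins with small RNAs guard the germline genome and mark its expressed genes. In late embryos the germline is a pair of primordial germ cells, so nearly all chromatin in a whole embryo is somatic. In such bulk material, binding in fewer cells and weaker binding per cell cannot be told apart.

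Of the 34 genes, 2 had a summit (the position of highest signal within a region) of the optimal list in the window. These were *mex-1* and *spn-4*, both maternal RNA-binding genes. The optimal list holds the 772 regions that the authors' reproducibility filter kept, and they are the 772 strongest of 30000 pooled regions. The share was 5.88% (95% Wilson interval 1.63 to 19.1%), beside 2.81% of all protein-coding genes, which lies inside that interval. In both cases another gene's 5′ end lay nearer to the summit than the member's own. None of the 8 P granule, 3 small RNA and 3 meiotic chromosome genes had an optimal summit, beside 2.81% of all genes. With so few genes the Wilson intervals end at 32.4%, 56.1% and 56.1%, so these counts do not set the roles apart.

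The sequences at the summits of the 4 strongest members are shown first, because these are the members with the highest pooled signal values (57.4 to 164). Each is the 101 bp centred on the pooled summit, from the RefSeq sequence of WBcel235 (ce11), on the forward strand. Capitals mark any of the 5 words of 6 bases that had the highest ratio of their share in optimal windows to their share in other pooled windows. Words below a minimum share of optimal windows were left out before this ranking. All these shares are over windows outside the members' promoter windows and away from tRNA genes, 623 optimal and 28967 other pooled. Read on both strands, the word CGCACG was in 11.6% of optimal and 1.73% of other pooled windows, and the word GCGCGC was in 12.5% and 1.94%. The word GCGCAC was in 15.7% and 2.86%, the word GCACGC in 11.2% and 2.16%, and the word CGCACA in 17.8% and 3.43%. Several of the words overlap one another by up to 5 bases.
*mex-1*, chrII:11967698-11967798: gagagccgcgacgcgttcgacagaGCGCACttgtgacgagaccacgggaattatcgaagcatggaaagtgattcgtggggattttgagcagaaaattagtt
*spn-4*, chrV:6785243-6785343: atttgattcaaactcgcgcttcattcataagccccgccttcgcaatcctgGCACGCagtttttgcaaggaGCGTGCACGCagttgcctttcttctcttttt
*xnd-1*, chrIII:5603676-5603776: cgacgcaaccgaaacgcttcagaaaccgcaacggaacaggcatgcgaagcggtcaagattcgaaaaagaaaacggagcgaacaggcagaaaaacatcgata
*cgh-1*, chrIII:7498572-7498672: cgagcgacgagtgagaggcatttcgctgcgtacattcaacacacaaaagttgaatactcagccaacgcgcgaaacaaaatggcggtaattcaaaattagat

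The windows of *mex-1* and *spn-4*, which are optimal regions, held 1 and 3 occurrences of these words, and those of *xnd-1* and *cgh-1* held 0. The 3 at *spn-4* are all the word GCACGC, read on either strand, and those within GCGTGCACGC overlap. The weak pooled region of *gld-3* (rank 15521), which is not in the optimal list, also held 1, GCGCAC. Outside the members' windows and away from tRNA genes, 255 of 623 optimal windows (40.9%) held at least 1 of the words, against 2603 of 28967 other pooled windows (8.99%). The words were picked from these same lists, so the shares are a description and carry no test. All 5 words are rich in G and C. The GC content was 50.5% at *mex-1*, 48.5% at *spn-4*, 49.5% at *xnd-1* and 44.6% at *cgh-1*, beside medians of 50.5% in optimal and 43.6% in other pooled windows. The part of base composition in the signal was not tested.

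*mex-1* encodes a CCCH zinc finger protein needed for germ cell fate and P granule segregation. Its region on chromosome II, from 11967550 to 11967945, ranked 108 of 30000 in the pooled list, with a signal value of 164. Signal values were assigned by the authors and serve here only to rank regions within a list. In replicate 1 the signal value was 93.1 (rank 107) and in replicate 2 it was 76.4 (rank 126). The replicates thus placed it at nearly the same rank in their own lists. The pooled summit lay 889 bp before the *mex-1* 5′ end, with the replicate summits at 934 and 875 bp. The same summit lay 204 bp upstream of the divergent gene *W03C9.5* and 817 bp upstream of *rab-7*, which encodes a small GTPase of late endosomes. It lay in no protein-coding gene.

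*spn-4* encodes an RNA-binding protein that regulates maternal mRNAs in the early embryo. Its region on chromosome V, from 6785095 to 6785490, had a pooled signal value of 92.8 (rank 400). In replicate 1 the signal value was 43.5 (rank 652), and in replicate 2 it was 48.4 (rank 383). The summit was 390 bp upstream of *spn-4* in the pooled list, 392 bp in replicate 1 and 421 bp in replicate 2. It was 158 bp upstream of the divergent gene *spe-39*, which encodes a protein of vesicle trafficking known from sperm development. The replicate summits were 29 bp apart.

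Just below the optimal list came *xnd-1*, a chromatin factor that sets the distribution of meiotic crossovers. Its pooled signal value of 68 (rank 822) compares with 69.6 for the weakest optimal region and 69.5 for the strongest region left out. The replicates differed more here than at *mex-1*: the signal value was 26.5 (rank 3341) in replicate 1 and 38.4 (rank 646) in replicate 2. The region, on chromosome III from 5603528 to 5603923, had its summit 734 bp upstream of *xnd-1*. That summit was 237 bp upstream of the divergent gene *madf-11*, itself named for the MADF domain, and inside the noncoding RNA gene *C05D2.14*. An optimal region with a signal value of 167 (rank 104) lay 2223 bp upstream of *xnd-1*, in an intron of *madf-11* and within 300 bp of the snoRNA gene *C05D2.15*, outside every protein-coding promoter window.

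*cgh-1* encodes a DEAD-box helicase of the DDX6 family that stores and protects maternal mRNAs. Its pooled signal value was 57.4 (rank 1237), with 35.8 in replicate 1 (rank 1157) and 25.6 in replicate 2 (rank 2107). The summits were 790, 792 and 800 bp upstream, the closest placement of the replicates among the members. No other protein-coding window held this summit. A weaker region of replicate 2 (signal value 13.6) lay 236 bp upstream.

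*nos-3* encodes a Nanos protein that acts with PUF proteins in the switch from sperm to oocyte. Its pooled signal value was 54.1 (rank 1451), with 32 in replicate 1 (rank 1659) and 20.3 in replicate 2 (rank 4758). The pooled summit lay 44 bp upstream of *nos-3* and 194 bp upstream of the divergent gene *Y53C12B.1*. Among the 5 strongest members it was the only one whose summit lay within 100 bp of the member's own 5′ end. The map of the genes around these summits shows the shared promoters of *spn-4*, *xnd-1* and *nos-3*.

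**Figure D1:**
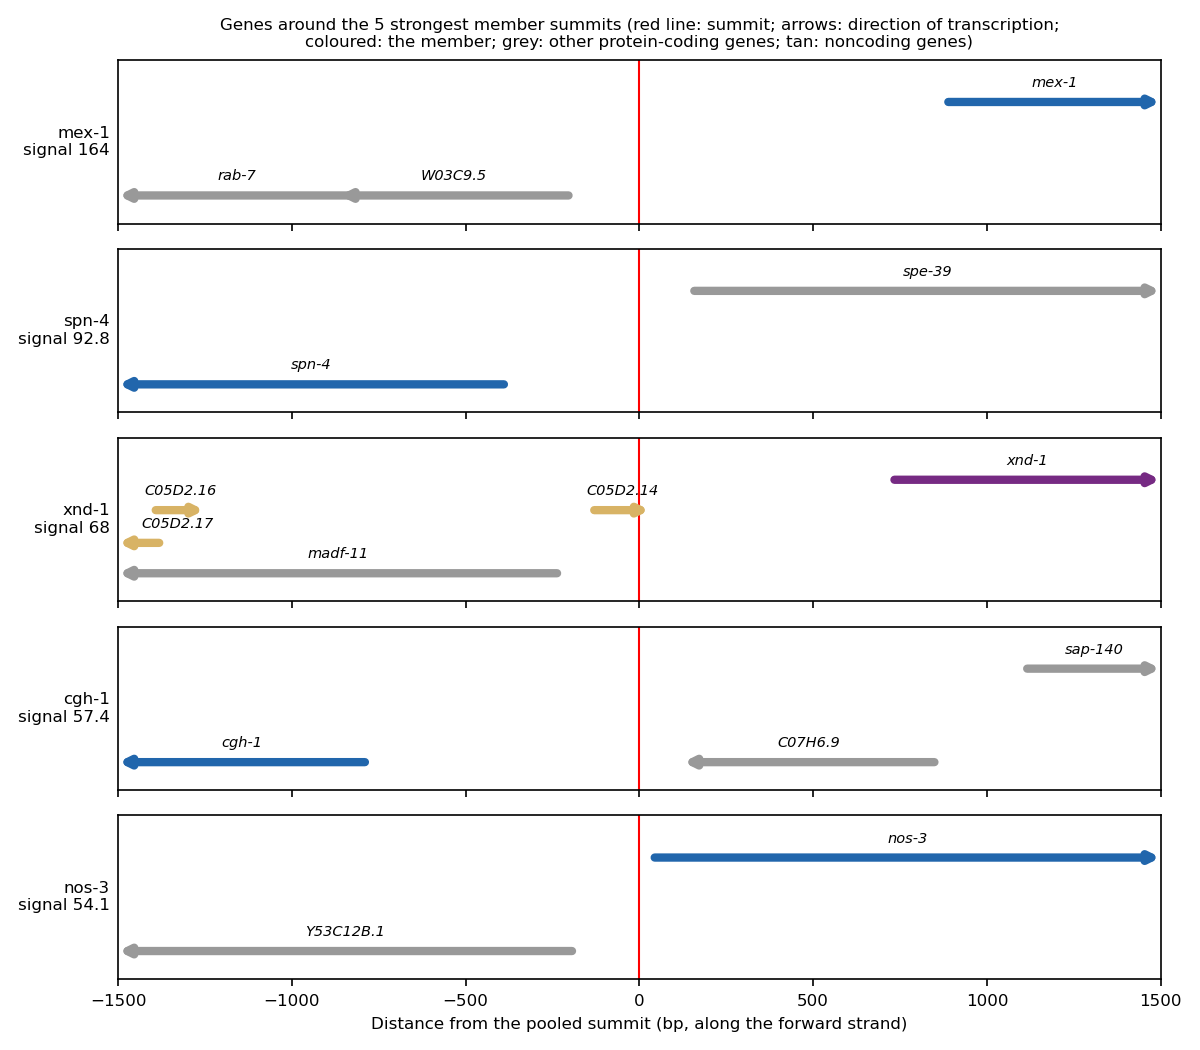
Annotated genes within 1500 bp of the 5 strongest member summits in the pooled list, plotted by distance from the summit in bp along the forward strand, with arrows for the direction of transcription and genes cut at the edges. The summits of *mex-1*, *spn-4* and *xnd-1* lie 204, 158 and 237 bp from the 5′ end of another gene and 889, 390 and 734 bp from the member's own.

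In the pooled list as a whole, which holds candidate regions and background, 13 of the 34 members had a summit in the window (38.2%, interval 23.9 to 55%), beside 35.7% of all protein-coding genes. Replicate 1 held a summit for 11 members (32.4%, beside 33.4% of all genes) and replicate 2 for 12 (35.3%, beside 35.4%). A summit in both replicate lists was present for 6 members (17.6%, beside 19.9%). Each of these shares is near that of all genes. The median of the strongest pooled signal value was 23.6 over the 13 members and 28.3 over the 7127 genes with a pooled summit. Of these 13, 5 members had a signal value above 30 (54.1 to 164), beside 3177 of the 7127 genes (44.6%). The other 8 members lay between 19.1 and 24.6, below the median of all genes. The authors' −log10 q-value was 3.03 at *mex-1* and *spn-4*, 2.52 at *xnd-1*, 2.35 at *cgh-1* and 2.29 at *nos-3*, and from 0.13 to 0.26 at those 8.

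**Figure D2:**
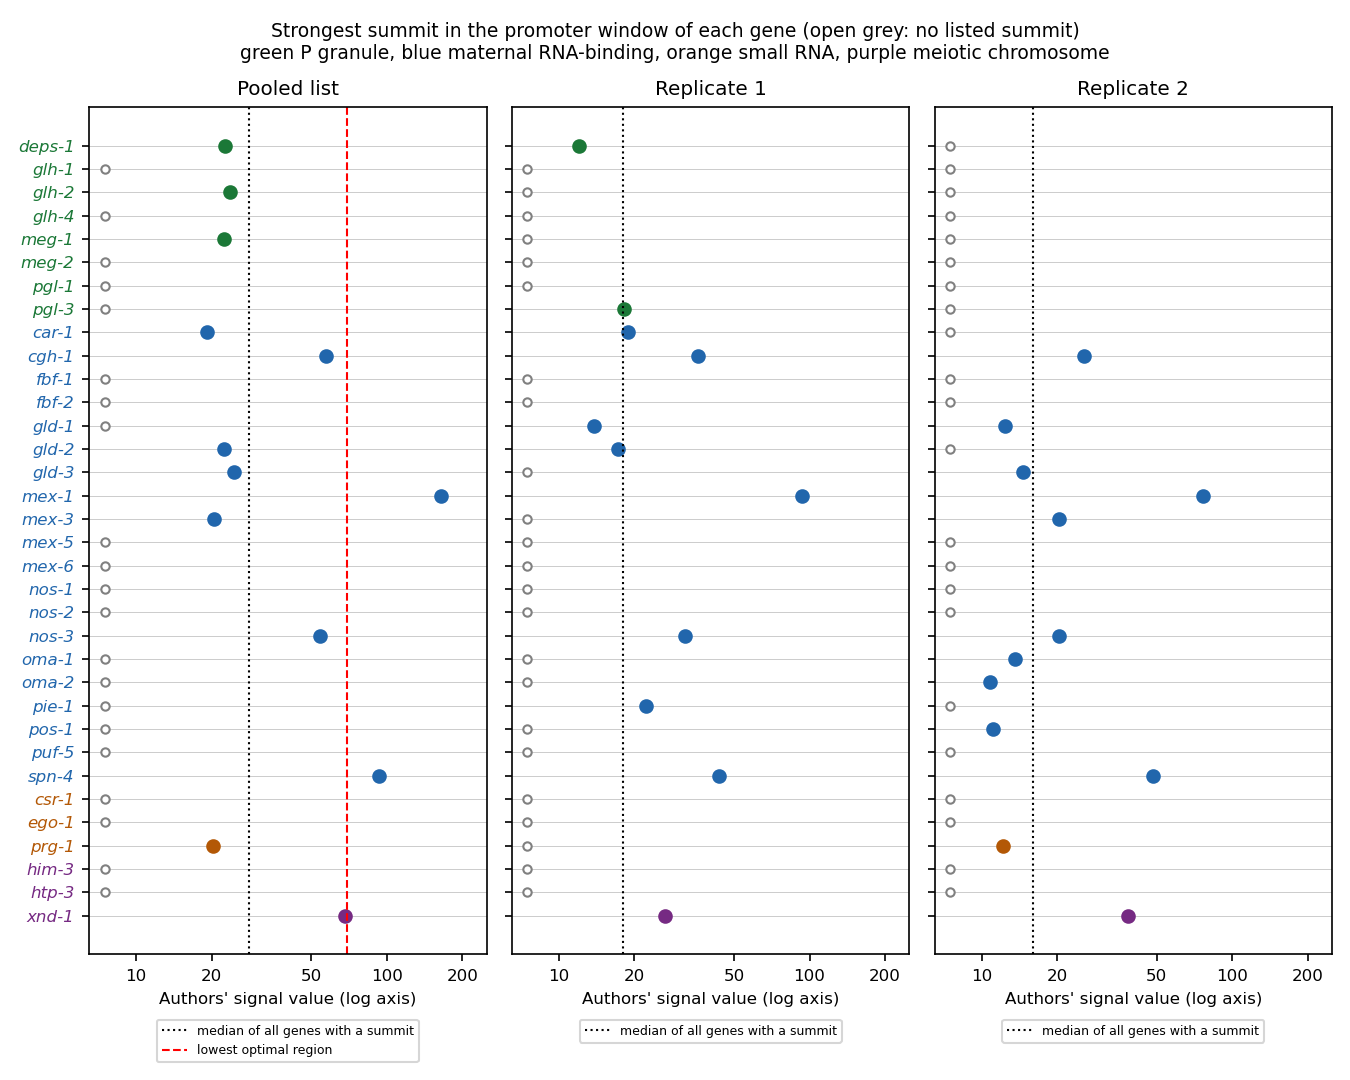
The authors' signal value (log axis) of the strongest summit in each member's window, in the pooled list and in each replicate list, with an open grey circle where the list has no summit there. In the pooled list *mex-1* and *spn-4* lie right of the dashed line at the weakest optimal region (69.6) and *xnd-1* lies beside it at 68, while the dotted lines mark the median of all genes with a summit, 28.3 in the pooled list.

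Of the 6 genes with a summit in both replicate lists, 5 had the replicate summits within 200 bp of each other, with gaps of 8 bp at *cgh-1*, 29 bp at *spn-4*, 59 bp at *mex-1*, 67 bp at *nos-3* and 89 bp at *xnd-1*. This is 14.7% of the members, beside 14.6% of all genes. Among the 772 strongest regions of a single replicate, 2 members had a summit in replicate 1 (beside 2.49% of all genes) and 3 in replicate 2 (beside 2.94%), where *xnd-1* joined *mex-1* and *spn-4*. The sixth was *gld-1*, which encodes a STAR-family KH protein that represses translation in the germline. Its summits were 793 bp apart and its signal values were 13.8 in replicate 1 and 12.4 in replicate 2. No pooled summit lay in its window. The 5 genes with close summits are also the 5 strongest in the pooled list. That list was made from both replicates, so the match is not independent.

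Among the 8 P granule genes, the Vasa-related helicase gene *glh-2*, *deps-1*, whose product acts in P granule assembly, and *meg-1*, whose product is a disordered protein of embryonic P granules, had a pooled summit. Their signal values were 23.6, 22.7 and 22.4, at ranks of 17137, 18677 and 19256. At *deps-1* the summit was 705 bp upstream in the pooled list and in replicate 1 (signal value 12), inside an exon of the divergent gene *Y65B4BL.4*. At *glh-2* it lay 230 bp upstream in an intron of *C55B7.11*, and at *meg-1* it lay 90 bp downstream of the 5′ end, in an exon. The RGG-box scaffold gene *pgl-3* had a summit in replicate 1 only, 882 bp upstream (signal value 18.2). The pooled count of 3 of 8 is 37.5%, beside 35.7% of all genes, and the replicate 1 count of 2 of 8 is 25%, beside 33.4%. None of the 8 had a summit in the replicate 2 list, beside 35.4% of all genes. At 0 of 8 the Wilson interval ends at 32.4%. With *cgh-1* and *car-1* counted as P granule genes, the replicate 2 count was 1 of 10, with an interval that ends at 40.4%. Of 10 further P granule genes that are not members, 4 had a summit in replicate 2 (40%). The difference between roles was not tested.

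The helicase genes *glh-1* and *glh-4*, the scaffold gene *pgl-1* and *meg-2* had no summit in any list. The nearest pooled summit to *glh-1* was 562 bp downstream of its 5′ end (signal value 27.3). That of *pgl-1* was 1031 bp upstream, just outside the window, with a signal value of 47.5 (rank 2151). This region lies on the side of the divergent gene *him-3*, 841 bp downstream of the *him-3* 5′ end, and was listed in replicate 1 (signal value 25.4) and in replicate 2 (22.1). It counts for neither gene in the window used here. The nearest optimal summit was 72667 bp from *glh-1*, 78883 bp from *glh-4* and 62336 bp from *pgl-1*. It was from 16074 bp (*meg-1*) to 24408 bp (*pgl-3*) away at the other P granule genes. The median distance was 52 kb over 19973 protein-coding genes and 37.5 kb over the 34 members.

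**Figure D3:**
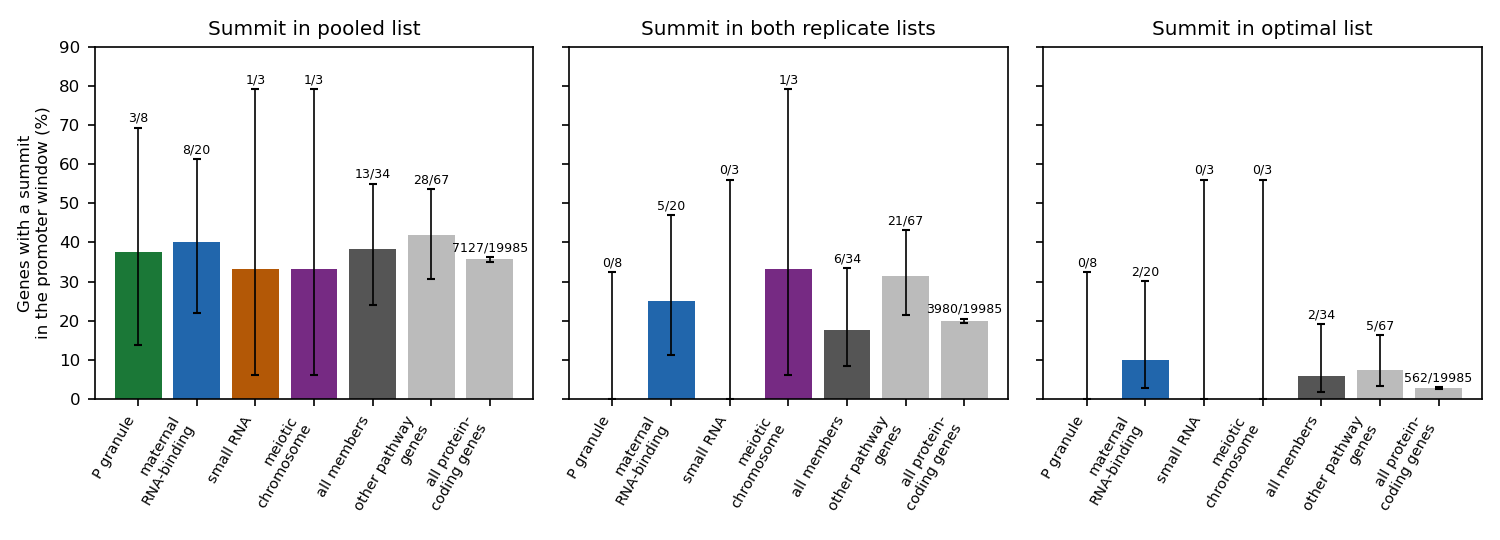
Percentage of genes with a summit in the promoter window, for each role, all members, further genes of the same pathways and all protein-coding genes, in the pooled list, in both replicate lists and in the optimal list. Bars are shares, lines are 95% Wilson intervals for counting error alone, and labels give counts: in the optimal list 0 of 8 P granule genes and 2 of 20 maternal RNA-binding genes.

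Among the 20 maternal RNA-binding and translation genes, 8 had a pooled summit (40%, interval 21.9 to 61.3%, beside 35.7% of all genes) and 2 an optimal one (10%, interval 2.79 to 30.1%, beside 2.81%). Both intervals hold the share of all genes. Besides the 4 described above, these were the poly(A) polymerase gene *gld-2*, its partner gene *gld-3* of the Bicaudal-C family, *mex-3*, which encodes a KH protein, and *car-1*, which encodes an Lsm-domain partner of CGH-1. Their strongest pooled signal values were 22.5, 24.6, 20.4 and 19.1, and each had a summit in 1 replicate list only. At *gld-3* the strongest pooled summit (rank 15521) lay 22 bp downstream of the 5′ end and was in neither replicate list. The replicate 2 summit of *gld-3* (signal value 14.6) lay 566 bp upstream, nearer to a weaker pooled summit (signal value 18) at 638 bp. At *gld-2* the pooled summit (rank 18983) lay 341 bp upstream, in an exon of *ZC308.4*, and the replicate 1 summit (signal value 17.2) lay 399 bp upstream. These 4 genes thus lacked a region listed in both replicates. *mex-3* was listed in replicate 2 (20.3) and *car-1* in replicate 1 (18.8). At *mex-3* the pooled and replicate 2 summits were 1 bp apart, at 579 and 578 bp upstream. At *car-1* the pooled and replicate 1 summits were at 407 and 408 bp.

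None of the other CCCH zinc finger genes among the members had a pooled summit in the window, beside 35.7% of all genes. *pie-1*, whose product represses transcription in germline blastomeres, had a summit in replicate 1 only, 106 bp downstream of its 5′ end. Its signal value was 22.3, above the median of 18 over all genes with a replicate 1 summit. The nearest pooled summit to *pie-1* was 319 bp downstream, outside the window (signal value 29.3). *pos-1*, *oma-1* and *oma-2*, needed for early embryonic fates and oocyte maturation, had summits in replicate 2 only, with signal values of 11.1, 13.6 and 10.8. The lowest signal value of the whole replicate 2 list is 10.8. *mex-5* and *mex-6*, close paralogues that pattern the zygote, had none in any list, and the nearest pooled summit to *mex-6* was 26754 bp away. The Nanos genes *nos-1* and *nos-2* and the PUF genes *fbf-1*, *fbf-2* and *puf-5* had none in any list either. *fbf-1* and *fbf-2* are near-identical, and the labels do not say how reads of such genes were placed, so their lack of regions is uncertain. The lack of a region in the window of *glh-1*, a close paralogue of *glh-2*, is uncertain in the same way. A pooled region was listed 562 bp downstream of the *glh-1* 5′ end, and how alike the windows of the paralogues are was not examined. *puf-5* had a pooled summit 319 bp downstream of its 5′ end (signal value 24).

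In the small RNA class, *prg-1*, which encodes the Piwi protein that binds piRNAs, was the only one of 3 genes with a listed summit. It lay 29 bp downstream of the 5′ end in the pooled list (signal value 20.2, rank 23470) and at 11 and 252 bp upstream in replicate 2 (11.2 and 12.2). The pooled count of 1 of 3 is 33.3%, beside 35.7% of all genes and 45.5% of 22 further small RNA genes. The Argonaute gene *csr-1* and the RNA-dependent RNA polymerase gene *ego-1* had none in any list, and the nearest pooled summit to *csr-1* was 519 bp downstream (27.3). Of the meiotic genes, *him-3* and *htp-3*, whose HORMA-domain products build the chromosome axis, had none in any list. With *xnd-1*, the meiotic pooled count was also 1 of 3 (33.3%, beside 35.7% of all genes). With 3 genes in a class, a count of 0 has a Wilson interval that ends at 56.1%, so these counts do not order the classes by their shares. In all, 15 members had no summit in the window in any list, and 19 of 34 (55.9%) had at least 1, beside 51% of all genes.

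**Figure D4:**
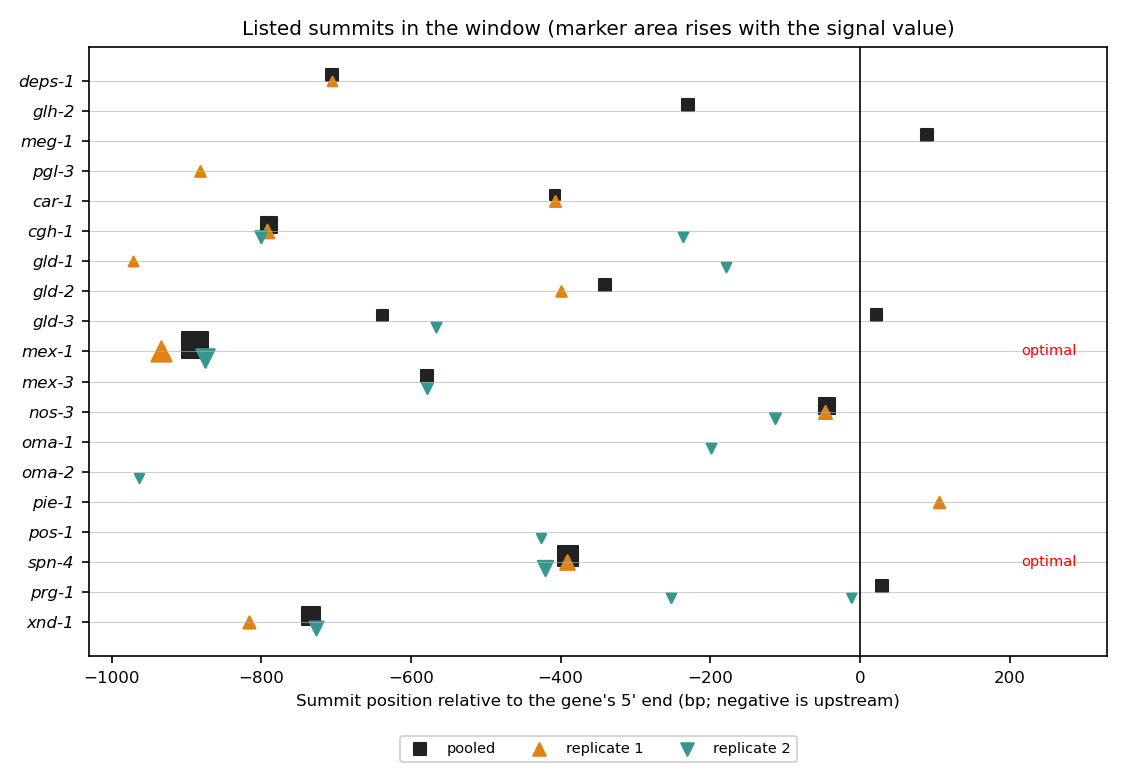
Position in bp of each listed summit relative to the 5′ end of the member (negative is upstream), by list, with marker area rising with the signal value. The summits of the 3 lists lie within 89 bp of each other at *mex-1*, *spn-4*, *xnd-1* and *nos-3*, while *cgh-1* has a second, weaker replicate 2 summit and *gld-1* has summits 793 bp apart.

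A divergent protein-coding gene began within 1000 bp upstream of 13 of the 34 members (38.2%), beside 17.7% of all protein-coding genes. Of all genes with such a neighbour, 7.43% had an optimal summit, and of those without, 1.82%. In the pooled list these shares were 50.2% and 32.5%. Among the 34, 7 of the 13 members with a divergent neighbour and 6 of the 21 without one had a pooled summit. *mex-1* counts among those without one, as the divergent gene *W03C9.5* begins more than 1000 bp upstream of the *mex-1* 5′ end. When each summit was given only to the gene of nearest 5′ end among those whose window held it, 0 members kept an optimal summit, beside 2.01% of all genes. Of the 562 genes with an optimal summit, 401 (71.4%) kept one under that rule. In the pooled list 9 members kept a summit (26.5%, beside 31% of all genes).

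The strongest pooled summit of the 13 members lay in an exon in 5 (38.5%), in an intron in 1 and outside protein-coding genes in 7 (53.8%). Over all 7127 genes the exon share was 27.7% and the outside share 63.4%, and over the 562 genes with an optimal summit these were 8.72% and 87%. The 5 strongest members all lay outside, and 5 of the 8 weaker ones in an exon. None of the 13 summits had a gene for a tRNA, snoRNA or snRNA within 300 bp. The same share over all genes was not computed, so this count is not read as a trait of the members. By chromosome, 1 of 9 members on II had an optimal summit (beside 2.84% of all genes there) and 1 of 4 on V (beside 1.78%). None of the 11 on I (beside 3.68%), the 3 on III (3.94%), the 5 on IV (2.74%) or the 2 on X (2.75%) did. None of the 5 members on chromosome IV had a pooled summit, beside 30.6% of all genes there, and 6 of the 11 on I had one, beside 45.6%.

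Of 67 further genes of the same pathways, 5 had an optimal summit (7.46%, interval 3.23 to 16.3%) and 28 a pooled one (41.8%), beside 2.81% and 35.7% of all genes. *atx-2*, the ataxin-2 homologue, had a pooled signal value of 275, with 136 in replicate 1 and 135 in replicate 2, 67 bp upstream. *larp-1*, a La-related RNA-binding protein gene, had 149 (75.8 and 73.2 in the replicates), and *ifet-1*, which encodes an eIF4E-binding translational repressor found in P granules, had 140 (79.4 and 61.2). *simr-1*, which acts in small RNA amplification, had 117 (60.1 and 47.9), and *him-17*, a THAP-domain germline factor, had 77.5 (43.1 and 29.7). Another protein-coding gene's 5′ end was nearer at 3 of these 5. At *ifet-1* it was that of *rps-1*, a ribosomal protein gene (252 bp against 516 bp). At *larp-1* it was that of *wip-1* (252 bp against 737 bp), and at *simr-1* that of *C06A5.3* (108 bp against 509 bp). The *ifet-1* summit also lay inside the noncoding RNA gene *F56F3.10* and 9 bp from the 5′ end of the noncoding RNA gene *F56F3.11*. At *atx-2* and *him-17* the gene's own 5′ end was nearest.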

How the data were processed

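Regions of ChIP-seq on whole late embryos (2 biological replicates, 1 group) were taken from 4 lists in ce11: replicate 1 (30000 regions), replicate 2 (27350), pooled (30000) and optimal (772). Per the file headers and records the authors deposited, single and pooled lists were made with a control alignment and the optimal list from these 3. No source used here gives the aligner, the caller or the read depth. The deposited signal value has no stated scale, and the deposited −log10 q-value has its highest value, 3.03, at 536 pooled regions and was not used to rank. The summit is the region start plus the offset plus 1, in 1-based positions, and genes are those of Ensembl release 115 (WBcel235). Many worm 5′ ends are trans-splice sites, so distances are approximate. Where a window held several summits, the strongest was used.

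Counts have 95% Wilson intervals (statsmodels 0.14.6, Python 3.11.15), for counting error alone, and no test was made because there is 1 group. The placement of summits was tested on simulated data. The members and lists were chosen with earlier results of these data known. Pooled signal values, ranks and summit positions are given for members with an optimal summit and the 10 strongest. Of 69 further pathway genes 67 matched the annotation. The ce10 lists were not used. The words of 6 bases, and the rule of 200 bp between replicate summits, were chosen after the data were seen.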

Additional observations from a re-analysis of the deposited data

How the results depend on the processing

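The count of 2 members with an optimal summit stands beside 2.81% of all genes. It was 1 (*spn-4*) in a window that reached 500 bp upstream and 100 bp downstream, beside 2.15%. It was 1 (*mex-1*) among optimal regions above the median signal value of that list (95.2), beside 1.44%, and 0 by nearest 5′ end, beside 2.01%. The member count stayed at 2 when the window reached 2000 bp upstream and 500 bp downstream (beside 3.8% of all genes). It also stayed at 2 with the 5′ ends of all transcripts (3.06%) and with regions that overlap the window (3.05%). With the 772 strongest regions of a single replicate it ranged from 2 to 3, as *xnd-1* joined without replicate 1. The count of 13 with a pooled summit was 8 in the smaller window and 22 in the larger (23.5% and 51.7% of all genes), and from 11 to 12 in a single replicate. It was 14 with the 5′ ends of all transcripts, 18 with regions that overlap the window and 9 by nearest 5′ end (38.9%, 41.7% and 31% of all genes). The count of 6 in both replicates was 2 in the smaller window, 12 in the larger and 3 by nearest 5′ end (11.1%, 35.4% and 15.9% of all genes). It was 8 with the 5′ ends of all transcripts and 7 with regions that overlap the window (23.2% and 25.2% of all genes). The windows change these counts by their construction, as they hold fewer or more summits. The median signal value of 23.6 ranged from 23 to 24.3.

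By role, the single-replicate ranges of the pooled count were 0 to 2 for P granule genes (0 without replicate 1), 8 to 10 for maternal RNA-binding genes, 0 to 1 for small RNA genes (0 without replicate 2) and 1 for meiotic genes, and the meiotic optimal count was 0 to 1. Counting *cgh-1* and *car-1* as P granule genes gave 5 of 10 pooled and 0 optimal. No paired analysis was possible because there is 1 group. Read depth is unknown, so an unlisted window does not show absence of binding.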
